A study of Mus musculus with 6 samples.

Results

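The genes described here are the Hox genes of the mouse, taken as every gene whose platform symbol is Hoxa, Hoxb, Hoxc or Hoxd followed by a number, each read from the brightest probe set naming that gene alone. This gave 36 genes of 22180 on the arrays: 9 of the HoxA cluster, 10 of HoxB, 9 of HoxC and 8 of HoxD. Hox genes without a probe set of their own were not analysed here. The K8wt group held 3 arrays (replicates 1, 2 and 4) of wild-type luminal mammary epithelial cells of Rosa26-Stop-YFP females, sorted for YFP 10 to 14 days after intraductal Ad-K8-Cre, an adenovirus that expresses Cre recombinase from a keratin 8 promoter. The Brca1Tumor group held 3 arrays (tumors 23, 24 and 25) of mammary tumors that arose some months after intraductal injection of the same virus into females of the genotype Trp53L/L;Brca1L/L, and which the labels call Trp53/Brca1-null. Both groups thus received Ad-K8-Cre. The labels mention no sorting of the tumors and no ages. They number a separate mouse for each K8wt sample, but leave unsaid if any tumors shared a mouse, so p-values measure only the spread between these samples, which may be partly technical.

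Hox genes encode homeodomain transcription factors that give cells their position along the body axis. They lie in 4 clusters, and members with the same number in different clusters are paralogs: low numbers are expressed towards the head, high numbers towards the tail and the ends of the limbs. The proteins bind DNA with cofactors of the TALE class (Pbx, Meis and Pknox proteins), and the clusters are kept silent by Polycomb proteins and active by trithorax proteins such as Kmt2a. In the mammary gland, Hoxc8 is known for its part in placing the embryonic placodes, and the paralogs Hoxa9, Hoxb9 and Hoxd9 for growth of the gland in pregnancy.

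All values are the authors' log2 expression levels. Olfactory receptor genes, 1088 in number and not expected in this tissue, gave a background mark, set for every array at their 95th percentile. The marks ran from 3.69 to 3.85 in K8wt and from 3.19 to 3.44 in Brca1Tumor, so the lower end of the scale itself differed between the groups, and olfactory receptor genes had a median difference of -0.25 (tumor minus wild type). The luminal markers Krt8, Krt18, Epcam and Cdh1 lay above the mark on all 6 arrays, and Krt19 on all but tumor 25. None of these 5 passed, but all had lower tumor means, 3 without overlap, with a median difference of -2.05; their list means were 8.62, 7.24 and 7.54 in tumors 23, 24 and 25 against 9.30 to 10.08 in K8wt. All 5 macrophage markers rose in tumors in limma, with list means from 6.91 to 7.67 against 4.05 to 4.75 in K8wt. Skeletal muscle markers (6 genes) averaged 9.40, 3.49 and 6.48 in the tumors in the order 23, 24 and 25, and 3.25 to 3.47 in K8wt. The fibroblast marker Dcn measured 10.10, 11.11 and 10.87 in K8wt and 9.16, 7.52 and 7.11 in the tumors. The adipocyte marker Fabp4 measured 10.75, 10.84 and 8.61 in K8wt and 8.22, 7.08 and 6.30 in the tumors. Neither passed. The other 6 fibroblast markers had higher tumor means, and all 4 adipocyte markers lower ones. The part of these marker differences in the Hox values was not tested beyond the values given beside each result. In bulk samples fewer cells of a type and less RNA per cell cannot be told apart.

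Most Hox genes were not told from background on any array. Of the 36, 22 never exceeded the mark, and 14 (38.9%) did so on at least 1 array, where 66.8% of all genes and 10.0% of olfactory receptor genes did. Per array, the number of Hox genes above the mark was 6, 5 and 9 in K8wt replicates 1, 2 and 4, and 7, 10 and 7 in tumors 23, 24 and 25. Of all genes, 50.2% to 54.0% lay above the mark on K8wt arrays and 57.2% to 61.6% on tumor arrays. Hoxb5 (in the brighter of its 2 probe sets), Hoxd8 and Hoxd10 exceeded it on all 6 arrays. Hoxb4 did so on every K8wt array, and Hoxa6 and Hoxb9 on every tumor array, which made 4 members in K8wt and 5 in tumors. Tumor marks were lower, and Hoxb9 had a lower tumor mean (3.57 against 3.93 in K8wt). With the 99th percentile as a stricter mark, no member passed on all arrays of either group, and those that passed on any were Hoxb3 and Hoxd8 on K8wt 1, Hoxb5 on K8wt 2, Hoxd8 on tumor 23, Hoxc6 on tumor 24, and Hoxa2 and Hoxa6 on tumor 25.

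The clusters and positions differed in how many members reached the mark. In HoxB, 6 of 10 members exceeded it on at least 1 array, in HoxA 4 of 9, in HoxC 2 of 9 and in HoxD 2 of 8, against 66.8% of all genes. By position, it was 3 of 7 members at paralog positions 1 to 3, 9 of 14 at positions 4 to 8, and 2 of 15 at positions 9 to 13, where these were Hoxb9 and Hoxd10. No member at position 1, 7, 11, 12 or 13 exceeded the mark on any array, a set that holds Hoxa13 and Hoxd13, known for limb ends and the urogenital tract, Hoxb13, known for the prostate, and Hoxc13, known for hair. These are counts of genes above the level of their own array; the brightness of 1 probe set was not set against that of another. Some of the counts rest on narrow margins, as Hoxa4 and Hoxb6 exceeded the mark on 1 array each, by 0.09 and 0.10. The counts hold for the probe sets used. Of those that name a Hox gene with another gene, the one for Hoxb3 and Hoxb2 exceeded the mark on 3 K8wt arrays and 2 tumors. The one for Hoxd4 and Hoxd3 exceeded it on tumor 23 (3.54), and the one for Hoxa3 and 5730446D14Rik on 2 K8wt arrays and 1 tumor. The dimmer Hoxb5 probe set, not used in these counts, exceeded it on 2 tumors and on no K8wt array.

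**Figure D1:**
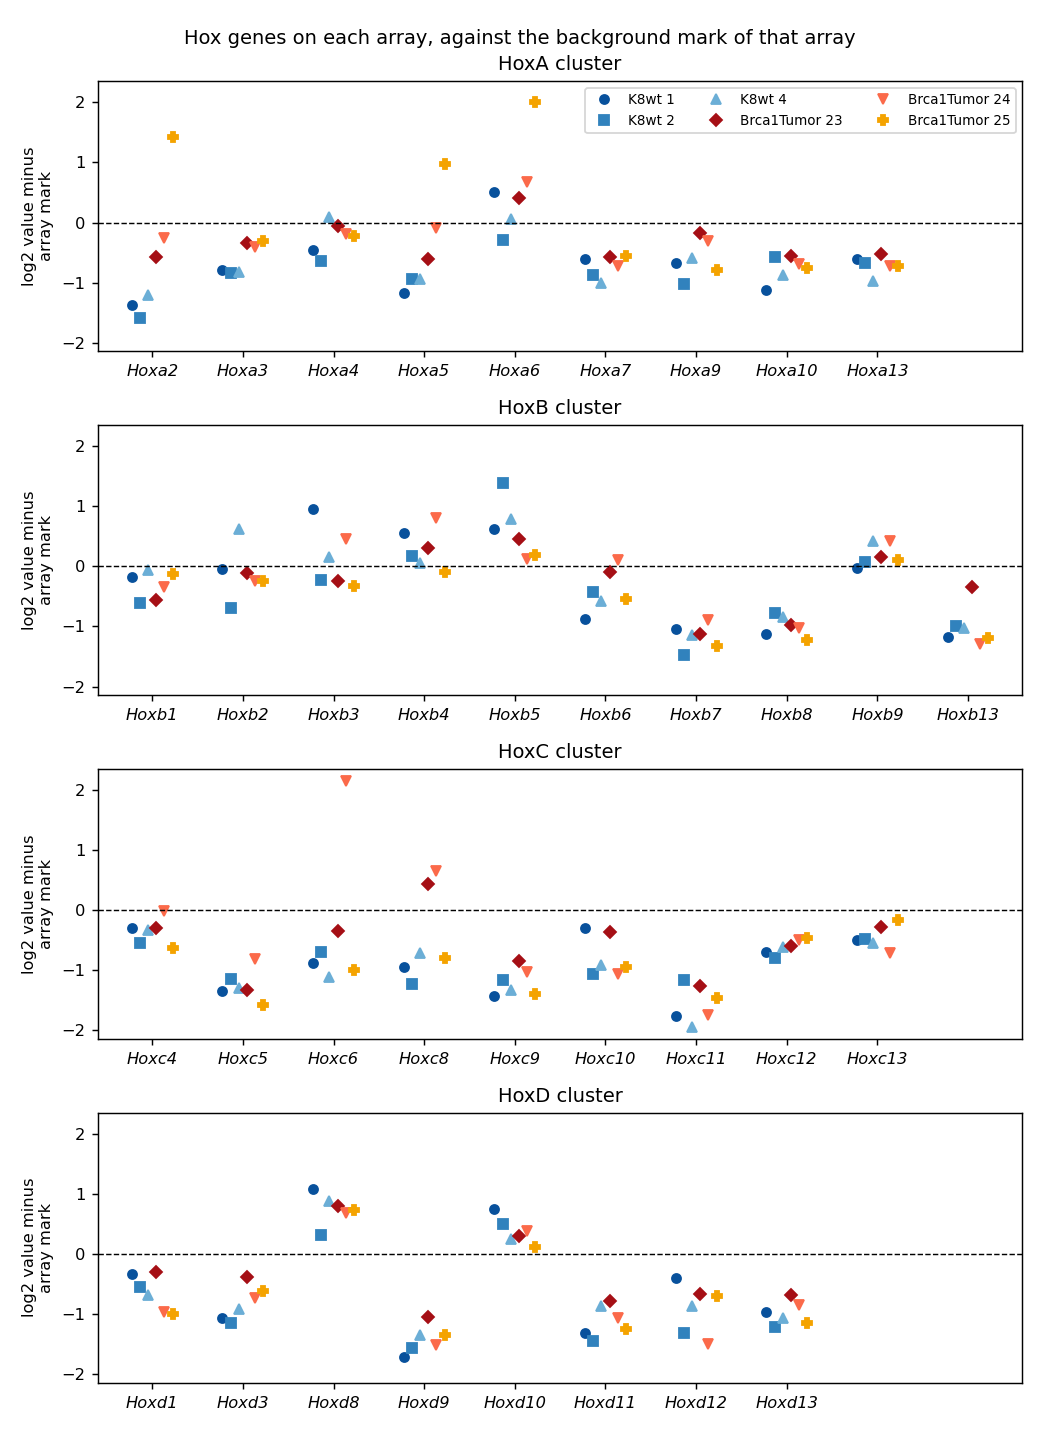
Each point is the log2 value of a Hox gene on 1 array minus the background mark of that array (vertical axis, log2 units), in 4 panels for the clusters with genes in paralog order; blue points are K8wt arrays and red to yellow points Brca1Tumor arrays, and the dashed line is the mark. The points farthest above the line are Hoxc6 on tumor 24 and Hoxa6 and Hoxa2 on tumor 25, while 22 genes have no point above it.

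No Hox gene passed the threshold between tumors and wild-type luminal cells in the limma fit over all genes. At an adjusted p under 0.05, 0 of 36 passed, against 3.91% of all genes (2.52% higher and 1.39% lower in tumors). The lowest adjusted p was that of Hoxb5 (0.0727), and 4 members had an unadjusted p under 0.05 (Hoxb5, Hoxb8, Hoxd1 and Hoxd10, all lower in tumors), where 26.4% of all genes did. Tumor means were lower for 28 members and higher for 8, with a median difference of -0.29, against -0.12 over all genes and -0.25 over olfactory receptor genes. They were also lower for 12933 of all 22180 genes and for 958 of the 1088 olfactory receptor genes. The groups did not overlap for 8 members that were lower in tumors (22.2%, against 22.4% of all genes and 32.0% of olfactory receptor genes) and for 1 that was higher (Hoxa2, against 14.0%). These shares are near or under those of all genes.

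The size of this shift depended on the scaling of the low end. With each array centred on its olfactory receptor genes, an alternative chosen after seeing the data, which moved the median of all genes by 0.24, 16 Hox genes were higher and 20 lower with a median of -0.05. After quantile normalization again it was 13 and 23 (-0.07), and after cyclic loess 15 and 21 (-0.05). Over the deposited values and these 3 scalings, 28 members kept 1 sign and 8 did not. HoxB had 9 of 10 members lower in each of the 4, with medians of -0.42 as deposited, -0.34 after quantile normalization, -0.26 after loess and -0.17 after centring. Of the 1088 olfactory receptor genes, 958 were lower as deposited and 553 after centring. Of all 22180 genes, it was 12933 and 8383. HoxA turned sign: it went from 4 higher and 5 lower (median -0.08) to 8 and 1 (0.16), HoxC from 2 and 7 (-0.29) to 3 and 6 (-0.04), and HoxD from 1 and 7 (-0.35) to 4 and 4 (-0.10), from the deposited values to the olfactory receptor centring. All 15 members at positions 9 to 13 had lower tumor means in the deposited values (median -0.29), but 4 were higher after quantile normalization and 6 after loess or after that centring. Positions 1 to 3 had a median of -0.47 and positions 4 to 8 of -0.28, which became -0.23 and -0.03.

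**Figure D2:**
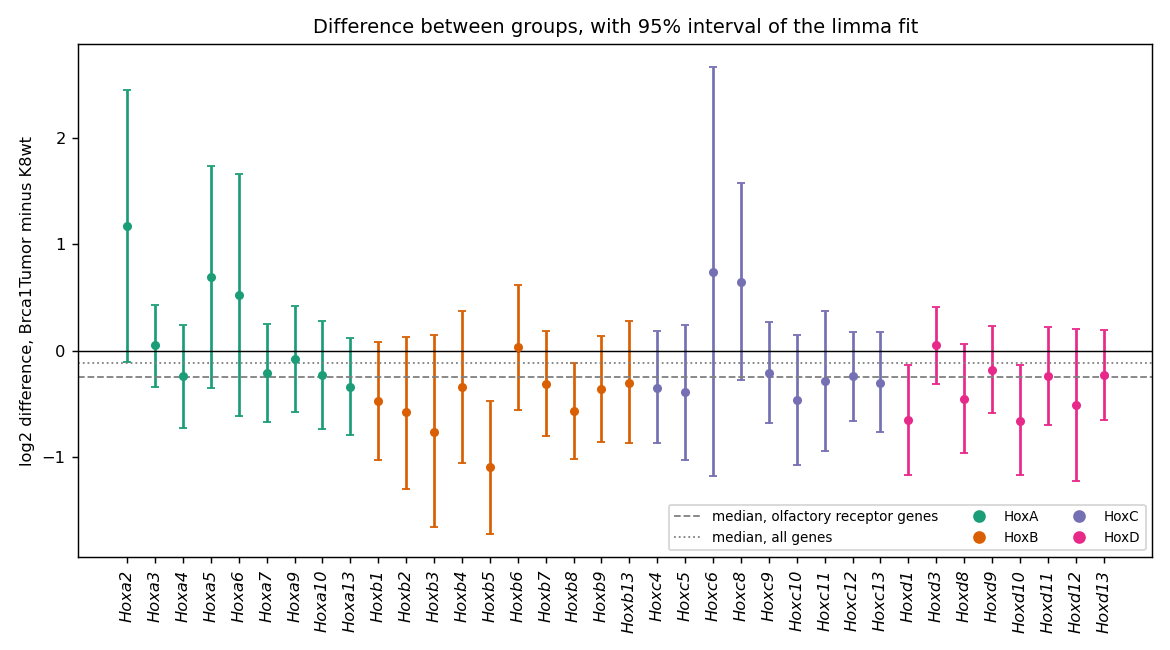
Points are log2 differences (Brca1Tumor minus K8wt, 3 arrays each) of the 36 Hox genes in cluster and paralog order, coloured by cluster, and bars are 95% intervals of the limma fit. The dashed line at -0.25 is the median of olfactory receptor genes and the dotted line at -0.12 that of all genes; most intervals cover both, and the widest belong to Hoxc6 and Hoxa2.

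In HoxA, 3 members were high in tumor 25 alone. Hoxa2, which patterns the second branchial arch, measured 2.37, 2.26 and 2.48 on K8wt arrays 1, 2 and 4, and 2.62, 3.19 and 4.81 on tumors 23, 24 and 25. Only the value of tumor 25 lay above its mark, although the groups did not overlap. The difference was 1.17 ± 0.53 (SE, 95% interval -0.11 to 2.45), and limma gave an adjusted p of 0.218; without tumor 25 it was 0.53. Hoxa5, known for its part in lung and airway development, measured 2.58, 2.91 and 2.75 in K8wt and 2.59, 3.35 and 4.36 in the tumors. The groups overlapped, and tumor 25 alone exceeded the mark. Its difference of 0.69 ± 0.43 (SE) did not pass (adjusted p of 0.331 in limma), and was 0.23 without tumor 25. Hoxa6, its neighbour, stood at 4.26, 3.56 and 3.75 in K8wt, around the mark, and at 3.59, 4.12 and 5.41 in the tumors, above it on all 3. Its difference was 0.52 ± 0.47 (SE, adjusted p of 0.483 in limma), and 0.00 without tumor 25.

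These genes were the only members at least 1 log2 unit above the highest K8wt array and above the mark in tumor 25: 3 of 36, against 8.97% of all genes on that array, a share near that of all genes. The genes between and beside them did not stand out there: Hoxa3 measured 3.08, Hoxa4 3.18 and Hoxa7 2.84 in tumor 25, all under the mark of 3.39 and within 0.25 of the K8wt mean. Hoxaas3, the noncoding gene annotated over Hoxa5 and Hoxa6, measured 3.13 there and 3.49 to 3.81 in K8wt, and lay under the mark on all 6 arrays. Hoxa4 exceeded the mark on K8wt 4 only (3.77), and Hoxa7, Hoxa9, Hoxa10 and Hoxa13 on no array, with differences from -0.34 to -0.08. The lowest of these was that of Hoxa13, which measured 3.16, 3.18 and 2.72 in K8wt and 2.66, 2.72 and 2.66 in the tumors (-0.34 ± 0.19, SE, adjusted p of 0.289 in limma).

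Marker lists also varied between the tumors. The skeletal muscle mean of tumor 25 was 6.48 with all 6 markers above the mark, between those of tumor 24 (3.49) and tumor 23 (9.40). Its endothelial list mean was 5.87, with 3 of 4 markers above the mark (Tek was not, on any array), against 4.73 to 5.52 in K8wt and 4.62 and 4.99 in tumors 23 and 24. The fibroblast list mean was 5.46 there, with 6 of 7 above the mark, against 5.40 to 5.79 in K8wt and 6.45 and 7.01 in the other tumors. Within that list the markers moved apart: Pdgfra was highest in tumor 25 (6.97), while Col1a1 (4.98), Col1a2 (4.40), Col3a1 (4.98), Dcn (7.11) and Lum were each lowest of the 3 tumors there. Pdgfrb, the only fibroblast marker that passed, rose from 3.37, 3.76 and 3.86 in K8wt to 5.24, 6.82 and 6.60 in tumors 23, 24 and 25 (2.56 ± 0.43, SE, adjusted p of 0.0349 in limma). The part of these cells in the HoxA values was not tested.

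The promoters of the 3 genes are shown because these members were high on the same array, and that of Hoxd8 because this gene was above the mark on all arrays. Each is the 250 bases before the RefSeq start (GRCm38.p6), 5′ to 3′ on the gene's strand, with the core that homeodomains bind in capitals, as TAAT or, where it lies on the other strand, ATTA.
Hoxa2 (chr6:52164832-52165081, minus strand): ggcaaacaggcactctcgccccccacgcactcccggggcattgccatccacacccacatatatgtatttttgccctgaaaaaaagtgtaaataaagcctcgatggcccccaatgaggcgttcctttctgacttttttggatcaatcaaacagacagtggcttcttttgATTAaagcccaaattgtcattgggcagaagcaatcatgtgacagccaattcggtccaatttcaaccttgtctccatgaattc
Hoxa5 (chr6:52204588-52204837, minus strand): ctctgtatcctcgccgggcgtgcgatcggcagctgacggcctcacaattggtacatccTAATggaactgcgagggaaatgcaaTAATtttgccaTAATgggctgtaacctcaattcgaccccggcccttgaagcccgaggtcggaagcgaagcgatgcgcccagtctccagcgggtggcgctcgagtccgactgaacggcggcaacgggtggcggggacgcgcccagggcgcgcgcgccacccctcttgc
Hoxa6 (chr6:52208673-52208922, minus strand): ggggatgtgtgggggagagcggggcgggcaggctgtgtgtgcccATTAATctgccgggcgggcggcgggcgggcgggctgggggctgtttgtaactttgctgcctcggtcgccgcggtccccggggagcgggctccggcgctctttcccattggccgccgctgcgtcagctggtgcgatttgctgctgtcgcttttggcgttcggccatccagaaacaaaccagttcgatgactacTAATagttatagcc
Hoxd8 (chr2:74704365-74704614, plus strand): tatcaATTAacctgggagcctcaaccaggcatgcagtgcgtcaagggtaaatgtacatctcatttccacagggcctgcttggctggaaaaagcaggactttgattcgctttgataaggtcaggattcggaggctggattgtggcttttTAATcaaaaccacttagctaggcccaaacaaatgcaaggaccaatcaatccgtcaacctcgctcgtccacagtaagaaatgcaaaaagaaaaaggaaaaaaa
The Hoxa5 and Hoxa6 windows lie within the annotated spans of Hoxa3 and Hoxaas3, the Hoxd8 window within that of Gm38462, and the Hoxa2 window within no annotated gene.

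TAAT occurred 1 time in the Hoxa2 window, 3 times each in those of Hoxa5 and Hoxa6, and 2 times in that of Hoxd8. It was present in 17 of 22 windows of the 20 members that the table holds (77.3%), and in 54.9% of all 32851 windows of this length. TGATNNAT, the joint site of Hox and Pbx proteins, was in 4 of the 22 (7.68% of all windows), among them Hoxa2. AGGTCA, the core bound by retinoic acid receptors, was in 5 (14.0% of all), among them Hoxd8 and Hoxd10, and in none of the Hoxa2, Hoxa5 and Hoxa6 windows. TATAAA was in 3 (12.4% of all) and in none of the 4 shown. The Hoxa5 window held 28 CG pairs and that of Hoxa6 24, while those of Hoxa2 and Hoxd8 held 6 each. At least 28 CG pairs were found in 7.61% of all windows, at least 24 in 12.0% and at least 6 in 50.4%. The 3 genes high in tumor 25 thus differed from each other in CG pairs.

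In HoxC, the members that reached the mark did so in tumors alone. Hoxc6 measured 2.87, 3.16 and 2.57 on K8wt arrays 1, 2 and 4, and 2.85, 5.59 and 2.39 on tumors 23, 24 and 25. Tumor 24 stood 2.72 above the K8wt mean, tumor 23 lay among the K8wt arrays and tumor 25 below them. The difference over the groups was 0.74 ± 0.80 (SE, 95% interval -1.18 to 2.66), with an adjusted p of 0.553 in limma, and turned to -0.25 without tumor 24. Hoxc8, the gene of the placodes, measured 2.80, 2.62 and 2.97 in K8wt and 3.63, 4.10 and 2.59 in the tumors. Tumors 23 and 24 exceeded their marks and every K8wt array, and tumor 25 lay below every K8wt array. Its difference of 0.64 ± 0.38 (SE) had an adjusted p of 0.313 in limma. Without tumor 25 it was 1.07 ± 0.24 (adjusted p of 0.103), and without tumor 24 it was 0.31.

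Hoxc6 and Hoxc8 were the only members at least 1 log2 unit above the highest K8wt array and above the mark in tumor 24: 2 of 36, again near the share of all genes (5.78%). In tumor 23 no member met this, against 7.14%. In no tumor did a Hox gene lie at least 1 log2 unit below the lowest K8wt array, against 2.21%, 2.52% and 2.51% of all genes in tumors 23, 24 and 25. With 22 of 36 members never above the mark, most had little room to fall this far. Their count therefore cannot be read against those shares. The HoxC neighbours Hoxc5 (2.63) and Hoxc4 (3.42) were not above the mark of 3.44 in tumor 24, nor was Hoxc9 (2.41). Hoxc10 to Hoxc13 never reached it, with differences from -0.46 to -0.24. Hoxc10 had the lowest, with 3.46, 2.79 and 2.78 in K8wt and 2.83, 2.38 and 2.45 in the tumors, where tumor 23 overlapped the K8wt arrays (-0.46 ± 0.25, SE, adjusted p of 0.283 in limma). Hotair, the long noncoding RNA gene of this cluster, ran from 2.66 to 2.89 over the 6 arrays, under the mark on each.

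Tumor 24 was also the array with the highest basal and fibroblast marker means. The basal mean was 6.96 with all 5 markers above the mark, against 6.02 to 6.61 in K8wt and 6.52 and 5.81 in tumors 23 and 25; within the list, Trp63 (6.93) and Krt14 (11.64) were the highest of all arrays there, while Cnn1 (4.14) was the lowest and Myh11 (4.31) lay below every K8wt array. Of the basal markers Myh11 alone passed, and it was lower in tumors (-1.40 ± 0.22, SE, adjusted p of 0.0296 in limma). The fibroblast mean of tumor 24 was 7.01 with all 7 above the mark. Col1a1, Col1a2, Col3a1 and Pdgfrb were highest of all arrays there. By contrast, Dcn (7.52) lay below every K8wt array, Pdgfra (5.27) was lowest of the tumors, and Lum (4.67) lay below tumor 23. Tumor 23, where Hoxc8 but not Hoxc6 lay above its mark, had a fibroblast mean of 6.45, also with 7 of 7. K8wt 4 had 7 of 7 as well, at a mean of 5.40, and its Hoxc8 value (2.97) lay under the mark. The skeletal muscle mean of tumor 23 (9.40) was the highest of all arrays, while that of tumor 24 was 3.49. The part of basal cells and fibroblasts in the HoxC values was not tested.

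**Figure D3:**
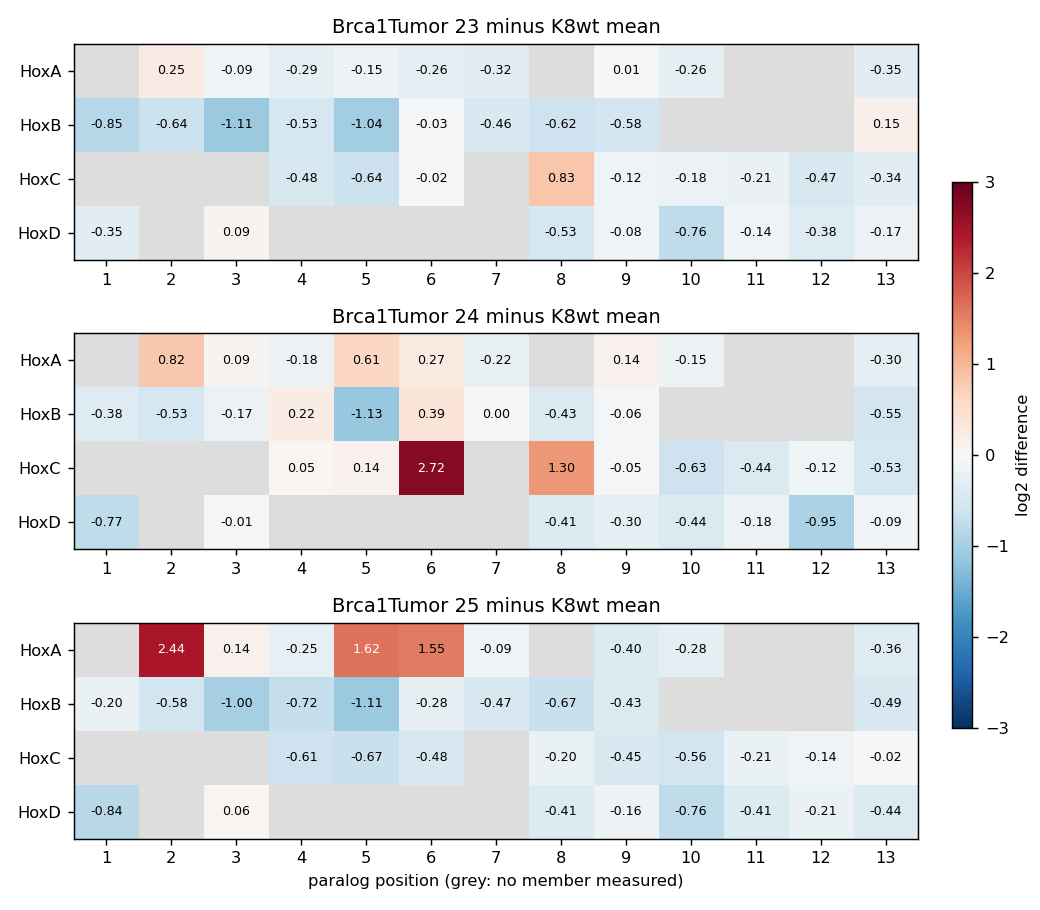
Each panel is 1 tumor, with clusters in rows and paralog positions in columns; colour and number give the log2 value minus the mean of the 3 K8wt arrays, and grey cells hold no measured member. Tumor 24 stands out at HoxC position 6 (2.72) and tumor 25 at HoxA positions 2, 5 and 6 (2.44, 1.62 and 1.55), while most cells of HoxB and HoxD are below 0.

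In HoxB, 9 of 10 tumor means were lower, where 958 of 1088 olfactory receptor genes were lower too. Of its members, 2 (Hoxb4 and Hoxb5) lay above the mark on every K8wt array, as did 2 of HoxD. Hoxb5 measured 4.38, 5.24 and 4.47 on K8wt arrays 1, 2 and 4, and 3.66, 3.56 and 3.59 on tumors 23, 24 and 25. Every array was above its mark and the groups did not overlap. The difference was -1.09 ± 0.26 (SE, 95% interval -1.72 to -0.47), a 2.14-fold difference that missed the threshold with an adjusted p of 0.0727 in limma. Its other, dimmer probe set did not repeat this, with 3.46, 3.61 and 3.43 in K8wt and 3.23, 3.84 and 2.98 in the tumors, a difference of -0.15 ± 0.25 (adjusted p of 0.707). The number of the brighter probe set lies in a run of numbers whose genes are mostly on the opposite strand: of its 20 nearest numbers whose genes had a strand in the RefSeq promoter table, 2 belonged to genes on the strand of HoxB, against 18 for the dimmer probe set. RefSeq annotates the noncoding gene Hoxb5os over Hoxb5; which transcript the brighter probe set reads was not tested, and no other member's probe set had a majority of such neighbours.

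Hoxb3 and Hoxb2, genes of the hindbrain code, were the next largest differences of the cluster. Hoxb3 stood at 4.71, 3.63 and 3.85 in K8wt and at 2.96, 3.90 and 3.07 in the tumors, so that tumor 24 lay among the K8wt arrays, and the difference was -0.76 ± 0.38 (SE). Hoxb2 measured 3.70, 3.16 and 4.31 in K8wt, above the mark on replicate 4 alone, and 3.08 to 3.19 in the tumors, a difference of -0.58 ± 0.30 (SE). The probe set naming both genes, which was not in the limma fit, measured 4.03, 4.14 and 3.70 in K8wt, above the mark on each array. In the tumors it stood at 3.05, 3.44 and 3.52, so that there the groups did not overlap. Against the marks, which were lower on tumor arrays, they did overlap. Tumor 25 (3.52, mark 3.39) stood farther above its mark than K8wt 4 (3.70, mark 3.69). Hoxb8 (-0.57 ± 0.19, SE) lay under the mark on all arrays, as did Hoxb1, Hoxb7 and Hoxb13, so their differences are of values not told from background. Hoxb4 measured 4.31, 4.02 and 3.74 in K8wt and 3.50, 4.25 and 3.30 in the tumors. Hoxb9, of the group known for mammary growth in pregnancy, stood at 3.73, 3.93 and 4.12 in K8wt and at 3.35, 3.87 and 3.49 in the tumors, with overlapping groups and a difference of -0.36 ± 0.21 (SE). Of its paralogs, Hoxa9, Hoxc9 and Hoxd9 exceeded the mark on no array. Hoxb6, alone in this cluster, had a higher tumor mean. It measured 2.88, 3.42 and 3.12 in K8wt and 3.11, 3.54 and 2.86 in the tumors, above the mark in tumor 24 only, a difference of 0.03 ± 0.25 (SE); without that tumor its difference was -0.16, and without K8wt 1 it was -0.10.

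In HoxD, 2 members were measured above the mark on all 6 arrays, and the other 6 on none. Hoxd8 measured 4.84, 4.17 and 4.57 on K8wt arrays 1, 2 and 4, and 4.00, 4.12 and 4.12 on the tumors. Tumor values lay below every K8wt array, by a small margin at K8wt 2, and the difference was -0.45 ± 0.21 (SE, 95% interval -0.96 to 0.06), with an adjusted p of 0.231 in limma. Hoxd10, a gene of limb and spinal cord patterning, measured 4.50, 4.35 and 3.94 in K8wt and 3.50, 3.82 and 3.50 in the tumors. The groups again did not overlap, and the difference was -0.66 ± 0.21 (SE, 95% interval -1.17 to -0.14), at an adjusted p of 0.128 by limma. The marks were themselves lower on tumor arrays, and against them the groups overlapped for both genes: Hoxd8 stood 0.68 to 0.80 above the mark in tumors and 0.32 to 1.09 in K8wt, and Hoxd10 0.11 to 0.38 and 0.25 to 0.75. Hoxd3, under the mark throughout in its own probe set, measured 2.68, 2.70 and 2.77 in K8wt and 2.81, 2.71 and 2.78 in the tumors, and was the only HoxD member with a higher tumor mean. Hoxd1 (-0.65 ± 0.21, SE) lay under the mark on every array.

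The TALE cofactors of Hox proteins were above background more often than the Hox genes. Of the 8 analysed here, 7 exceeded the mark on every tumor array, 3 of them (Meis1, Meis3 and Pbx3) also on every K8wt array. Over all 22180 genes, 11814 did so on every tumor array and 10173 on every K8wt array. The marks were lower on tumor arrays: Pbx2 in tumor 24 (3.67) lay within the K8wt range, and Pknox2 in tumor 23 (3.46) below every K8wt array. None of the 8 cofactors passed the limma test, 5 tumor means were higher and 3 lower, and the median difference was 0.21. Meis1, the Hox cofactor named for myeloid leukaemia, measured 4.98, 6.38 and 6.14 in K8wt and 4.41, 6.65 and 4.56 in the tumors, with tumor 24 the highest of all arrays. Meis2 stood at 3.45 to 3.59 in K8wt, under the mark, and at 4.88, 5.05 and 3.58 in tumors 23, 24 and 25, above their lower marks. The value of tumor 25 lay within the K8wt range, and the difference was 0.96 ± 0.39 (SE, adjusted p of 0.185 in limma). Pbx3 was at 4.31 to 4.40 in K8wt and at 4.97, 4.69 and 4.98 in the tumors, without overlap (0.52 ± 0.17, SE, adjusted p of 0.125 in limma). Pbx4 was under the mark on all arrays. Tumors 23 and 24 were the higher ones for Meis2 and for Hoxc8; no correlation was computed over so few arrays.

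**Figure D4:**
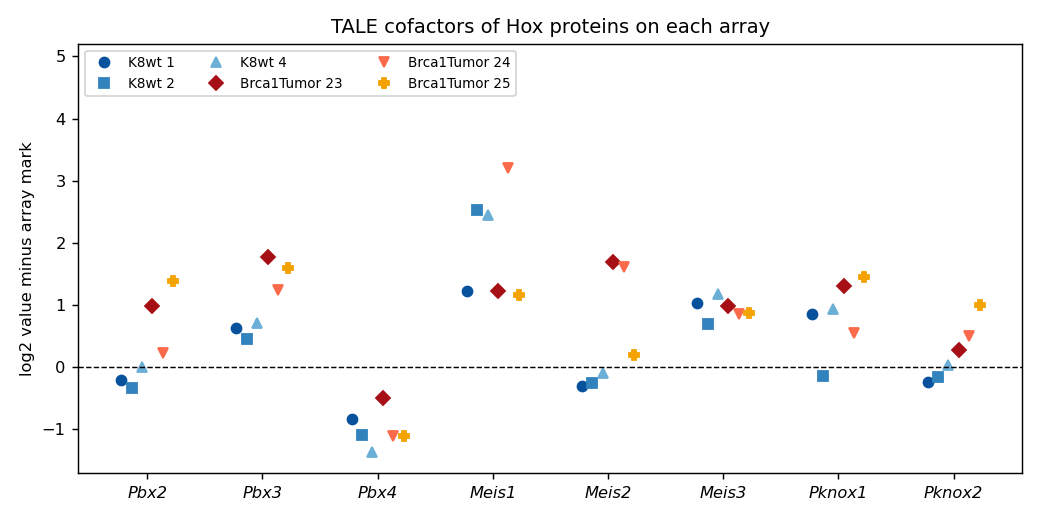
Points are log2 values of 8 TALE cofactor genes on each array minus the background mark of that array (vertical axis, log2 units; dashed line at the mark), with blue for K8wt and red to yellow for Brca1Tumor. Meis1 lies above the line on all 6 arrays and is highest in tumor 24, and Meis2 is under the line on all K8wt arrays and above it in all tumors; in tumor 25 its value (3.58) is within the K8wt range, and that array's mark is lower.

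Among the genes that act on Hox clusters (trithorax, Polycomb, Cdx and retinoic acid genes), 1 rose and 2 fell of 14, 17 and 13 measured in the 3 lists, where 3.91% of all genes were called. All 14 measured trithorax and MLL genes lay above the mark on all arrays. Ash2l, a core subunit of the histone H3 lysine methyltransferase complexes, rose from 6.70, 6.58 and 6.40 to 8.43, 7.87 and 9.15 (1.93 ± 0.33, SE, adjusted p of 0.0369 in limma). Kdm6b, a demethylase of the Polycomb mark, fell from 8.50, 8.92 and 8.44 to 6.52, 7.37 and 7.25 (-1.57 ± 0.28, SE, adjusted p of 0.0387). Kmt2a, the methyltransferase best known for Hox maintenance, was at 7.69 on all K8wt arrays and at 6.57, 7.57 and 7.20 in the tumors, without passing (adjusted p of 0.229). The 14 genes had a median difference of 0.29. None of 17 measured Polycomb genes passed, with a median of 0.22; Ezh2, the methyltransferase of the Polycomb mark, measured 7.63 to 7.74 in K8wt and 8.33 to 9.17 in the tumors (1.09 ± 0.24, SE, adjusted p of 0.0644), and Phc3, a subunit of the silencing complex, was 0.97 lower. Of 13 Cdx and retinoic acid genes, only Aldh1a3, which makes retinoic acid, passed, and it fell by 2.72 ± 0.44 (SE, adjusted p of 0.0317), from 6.78, 5.94 and 6.77 to 3.92, 4.47 and 2.93. The receptors Rara and Rarg differed by 0.04 and -0.15 without passing. Cdx2 and Cdx4, activators of the clusters in the embryo, lay under the mark on all arrays. Cdx1, by contrast, exceeded it on 2 K8wt arrays and on tumor 23. Its values were 3.76, 3.81 and 4.15 in K8wt against 3.37, 2.93 and 3.09 in the tumors, without overlap. At -0.78 in limma, the Cdx1 difference stayed short of the threshold (adjusted p 0.0866).

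Genes next to or inside the clusters showed no called change. Of 18 measured of 29 listed, 0 passed in limma, with a median difference of -0.09, and 9 never exceeded the mark, among them Evx1 and Evx2, the homeobox genes at the ends of HoxA and HoxD, and the microRNA genes Mir10b, Mir196a-1 and Mir196a-2. The flanking gene Skap2, an adaptor protein gene beside HoxA, measured between 4.03 and 6.05 in K8wt and 7.19, 7.19 and 7.75 in the tumors (2.02 ± 0.56, SE, adjusted p of 0.0959), and Cbx5, beside HoxC, was 1.63 ± 0.40 higher (adjusted p of 0.0754). Of 27 measured genes of other homeobox families, Msx2 alone passed, a share near the 3.91% of all genes, and it fell by 1.90 ± 0.19 (SE, adjusted p of 0.0125 in limma), from 5.10, 5.19 and 5.05 to 3.24, 3.44 and 2.95; the median was -0.03. The mesodermal homeobox genes Meox1 and Meox2 were, like Hoxa2, highest in tumor 25, at 2.73 and 2.11 above their K8wt means. Prrx1 was also highest there, at 2.86 above its K8wt mean. However, Prrx1 (5.44, 5.96 and 7.05 in tumors 23, 24 and 25) and Meox1 (4.18, 3.48 and 5.89) lay above every K8wt array in all 3 tumors. Meox2 did so in tumor 25 only. Irx4 was highest in tumor 24, like Hoxc6, at 5.25 against 2.95 to 3.37 in K8wt. Of all genes, 8.97% in tumor 25 and 5.78% in tumor 24 lay at least 1 log2 unit above the highest K8wt array and above the mark. A link of these genes to Hoxa2 or Hoxc6 was not tested.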

How the data were processed

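RNA was prepared by RNeasy, then amplified and labelled by NuGEN's Ovation V2 system, per the labels' protocols. The authors deposited log2 values; RMA and oligo are named, without versions, per the submitters' processing notes. RMA compresses differences near background, where most Hox genes lie. The table held 41345 probe sets, of which 23521 named 1 gene in the platform annotation, 1814 several and 16010 none; 23328 were matched by Entrez identifier to RefSeq (GRCm38.p6). Each of 22180 genes was read from its brightest probe set by mean value.

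Tumors were compared with wild-type cells by limma 3.58.1 in R 4.3.3 (lmFit and eBayes, two-sided, no covariates, no filter), a step tested on simulated data, with Benjamini-Hochberg adjustment over 22180 genes and a threshold of 0.05. Each adjusted p is from that fit. No batch was tested, as no scan date was used here. Precision is limited by having 6 arrays. The members and gene lists were chosen with earlier results of these data known. Full values are given for members past the threshold, for those above the mark on all arrays of a group without overlap, and for the largest rise and fall per cluster; Hoxa5, Hoxa6, Hoxc8 and the other members with values were added after their values were seen. Of the other lists, called genes were to be named, or the 2 largest differences where none passed, and further ones were chosen after seeing them. The Hox windows came from RefSeq's promoter table, which held 20 of the 36 genes.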

Additional observations from a re-analysis of the deposited data

Results flagged for a closer look

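The dimmer probe set of Hoxb5, which the comparisons did not use, measured 3.84 in tumor 24. That is above the mark of 3.44 on that array and above the 3.43 to 3.61 of the K8wt arrays, while tumors 23 and 25 stood at 3.23 and 2.98. Of the 7 probe sets that name a Hox gene together with another gene, none exceeded both the mark and every K8wt array in any tumor. With 3 arrays a group, no array was tested as an outlier within its group.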

How the results depend on the processing

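The count of 0 Hox genes past the threshold held under every alternative that left a Hox gene to test; the number at an unadjusted p under 0.05 ran from 2 to 8 with all 36 tested. A mean of at least 5 left no Hox gene, and a mean of at least the median left 3. Over all genes, 867 passed (64.5% higher in tumors), with 1324 under array weights and 1571 (85.6% higher) after olfactory receptor centring; leaving out 1 array gave 72 (without K8wt 4) to 1200 (without tumor 24). The share higher was 52.3% after cyclic loess and 44.3% after a further quantile normalization. The median difference of HoxA, HoxB, HoxC and HoxD was -0.08, -0.42, -0.29 and -0.35. After quantile normalization again that of HoxA was 0.12, of HoxC -0.07 and of HoxD -0.14. After cyclic loess the medians were 0.15, -0.26, -0.05 and -0.13, and after olfactory receptor centring 0.16, -0.17, -0.04 and -0.10. Leaving out 1 array gave -0.19 to 0.00 for HoxA, -0.57 to -0.36 for HoxB, -0.35 to -0.24 for HoxC and -0.47 to -0.29 for HoxD. With the 99th percentile as the mark, 0 Hox genes exceeded it on every K8wt array and 0 on every tumor array, in place of 4 and 5. Leaving out 1 array turned the differences of Hoxa9 (-0.08 with all arrays, 0.08 without tumor 25), Hoxb6 (-0.16 without tumor 24 to 0.18 without tumor 25; -0.10 without K8wt 1) and Hoxc6 (-0.25 without tumor 24 to 1.35 without tumor 25). The cause of these shifts was not tested. The olfactory receptor centring and the other Hoxb5 probe set were chosen after seeing the data. No paired analysis was possible because the groups share no replicate numbers.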
